A study of Mus musculus with 38 samples.

Results

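Granins and the enzymes that cut and trim prohormones were followed in dentate gyrus granule cells of *Arc*::dVenus mice. The genes are *Scg2*, *Chga*, *Chgb*, *Vgf*, *Scg3*, *Scg5*, *Cpe*, *Pcsk1* and *Pcsk2*, and all 9 are among the 23420 genes counted in every library. They were chosen by symbol, with earlier results of these data known. In this reporter the *Arc* promoter drives dVenus, a short-lived fluorescent protein, so a dVenus+ cell is one with recent activity of that promoter. All mice were male adults (postnatal weeks 8 to 12) backcrossed into C57BL/6J, and all carried the reporter. FC mice (n = 12) received 3 tones, each paired with a foot shock, NS mice (n = 4) went through the same protocol without shocks, and HC mice (n = 3) stayed in the home cage. FC and NS cells were collected the day after training. From each mouse the contents of 10 dVenus+ cells and those of 10 dVenus- neighbors were drawn into pipettes and sequenced as 2 libraries, 38 in all. A library is therefore a mixture of 10 cells, in which fewer cells expressing a gene and less RNA per cell cannot be told apart.

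Granins are acidic secretory proteins that aggregate with peptide hormones and neurotrophins in the trans-Golgi network and are packed into dense-core vesicles, the organelles that neurons use for regulated release of peptides. Inside the maturing vesicle the prohormone convertases encoded by *Pcsk1* and *Pcsk2* cut precursors at paired basic residues, and carboxypeptidase E, encoded by *Cpe*, removes the basic residues left at the new ends. Granule cells of the dentate gyrus carry such vesicles in their axons, the mossy fibers, and several granin genes are known to respond to neuronal activity.

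The libraries held between 1352288 and 18394761 counts on genes (median 8013005). The lowest total was that of the dVenus+ library of FC mouse 03, and the fewest genes detected in an FC library, 7860, were those of the dVenus+ library of mouse 05, which held 5266354 counts. *Arc* had at least 502 counts in every dVenus+ library. In the dVenus- libraries of FC mice 06, 07 and 14 it had 1276, 1095 and 2549 counts, against their label, and at most 51 in the other 16 dVenus- libraries. The FC fit was therefore also run without these 3 mice. Its results are given for *Scg2*, *Chga*, some of the other genes named and the counts of calls. The granule cell gene *Prox1* reached 10 counts in 36 of 38 libraries. The 9 granule cell markers summed to less in the dVenus+ library of 12 of 12 FC, 4 of 4 NS and 3 of 3 HC mice, with ranges in FC of 207 to 1323 normalized CPM (counts on genes divided by the library size as scaled by TMM) in dVenus+ and 807 to 2707 in dVenus- libraries. They did not move alike. In FC dVenus+ cells 4 of the 9 were called lower and 1, *Pdzd2*, higher (log2 fold change 1.97, edgeR adjusted p = 0.0278). *Prox1* was not called (-0.77, edgeR adjusted p = 0.477). The 9 microglia markers summed to more in the dVenus+ library of 12 of 12 FC, 4 of 4 NS and 2 of 3 HC mice, with FC ranges of 32.7 to 1714 and 1.12 to 499 CPM. The summed level of 5 nuclear-retained RNAs, most of it *Malat1*, was also higher in the dVenus+ library of all 19 mice, while 1 of the 5, *Miat*, was called lower in FC dVenus+ cells (log2 fold change -2.29, edgeR adjusted p = 0.0142). These sums move with the contrast that every comparison below makes, and their part in the results was not tested.

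The promoters of 4 members are shown because 3 of them hold a full cyclic AMP response element, TGACGTCA, the palindrome that CREB family factors bind, and the remaining one belongs to *Chga*, which fell in FC dVenus+ cells and holds only the short form TGACG. Each window runs from 250 bases before to 50 bases after the RefSeq start site (GRCm38.p6), 5′ to 3′ on the strand of the gene, with matches to either motif in capitals.
Scg2, chr1:79439977-79440276, minus strand: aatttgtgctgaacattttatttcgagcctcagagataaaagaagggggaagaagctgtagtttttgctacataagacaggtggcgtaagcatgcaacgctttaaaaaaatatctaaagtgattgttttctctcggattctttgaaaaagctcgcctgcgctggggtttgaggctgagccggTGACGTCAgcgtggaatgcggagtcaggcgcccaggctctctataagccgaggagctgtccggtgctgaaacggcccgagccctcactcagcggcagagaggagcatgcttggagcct
Chgb, chr2:132781392-132781691, plus strand: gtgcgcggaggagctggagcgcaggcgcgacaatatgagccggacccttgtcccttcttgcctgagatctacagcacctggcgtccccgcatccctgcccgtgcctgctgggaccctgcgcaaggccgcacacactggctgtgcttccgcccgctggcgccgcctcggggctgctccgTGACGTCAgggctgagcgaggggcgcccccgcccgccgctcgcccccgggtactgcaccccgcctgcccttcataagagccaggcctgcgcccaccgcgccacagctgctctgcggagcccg
Pcsk1, chr13:75089607-75089906, plus strand: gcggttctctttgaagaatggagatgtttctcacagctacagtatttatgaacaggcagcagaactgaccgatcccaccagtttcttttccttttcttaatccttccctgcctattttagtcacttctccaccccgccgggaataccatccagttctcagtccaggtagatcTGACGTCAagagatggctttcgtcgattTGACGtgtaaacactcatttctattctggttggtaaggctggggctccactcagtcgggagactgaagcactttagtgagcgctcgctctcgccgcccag
Chga, chr12:102554691-102554990, plus strand: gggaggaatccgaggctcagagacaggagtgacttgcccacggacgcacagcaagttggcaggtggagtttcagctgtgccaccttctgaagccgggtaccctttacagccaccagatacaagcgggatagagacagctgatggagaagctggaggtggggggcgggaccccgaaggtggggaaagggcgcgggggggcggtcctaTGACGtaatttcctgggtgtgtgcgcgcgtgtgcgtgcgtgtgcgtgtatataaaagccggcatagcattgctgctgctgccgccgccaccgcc

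Windows were matched for 7 of the 9 genes, without *Vgf* and *Cpe*. TGACGTCA begins at position -68 from the start site in *Scg2*, -72 in *Chgb* and -78 in *Pcsk1*, and lies in 1.79% of all 32851 promoter windows of the same length. TGACG, searched on both strands, occurs in 7 of the 7 windows and in 20.8% of all windows, and each TGACGTCA holds a TGACG on either strand. In *Chga* it begins at -44, in *Scg3* at -30 and in *Scg5* at -175 and 20. On the other strand it lies at 41 in *Scg5* and at -34 in *Pcsk2*. The AP-1 motif TGACTCA was found in 0 of the 7 windows and in 5.20% of all. These are matches of letters only. Of the 3 genes with TGACGTCA, *Scg2* was called higher in FC dVenus+ cells, *Chgb* was not called and *Pcsk1* had too few counts for the main test. Whether the motif bears on these results was not tested.

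Within FC mice, dVenus+ libraries were compared with the dVenus- libraries of the same mice, which asks how cells with recent *Arc* promoter activity differ from their neighbors. *Scg2* rose 7.51-fold and *Chga* fell by 3.43 on the log2 scale, so that 2 of the 8 members tested were called, 1 in each direction. Over all 9709 genes tested in FC mice 4.35% were called, 1.50% higher and 2.84% lower, by edgeR's quasi-likelihood test with the mouse as a block, at a Benjamini-Hochberg adjusted p under 0.05 and an absolute log2 fold change over 1. *Vgf*, *Scg3* and *Scg5* had unadjusted p-values under 0.05, the first with a positive and the other two with a negative log2 fold change, and did not pass after adjustment. *Chgb*, *Cpe* and *Pcsk2* had log2 fold changes between 0.37 and 0.81 and did not pass either. The median log2 fold change of the 8 members was 0.38, against -0.11 over all genes tested. *Pcsk1* was left out of the test by the count filter.

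**Figure D1:**
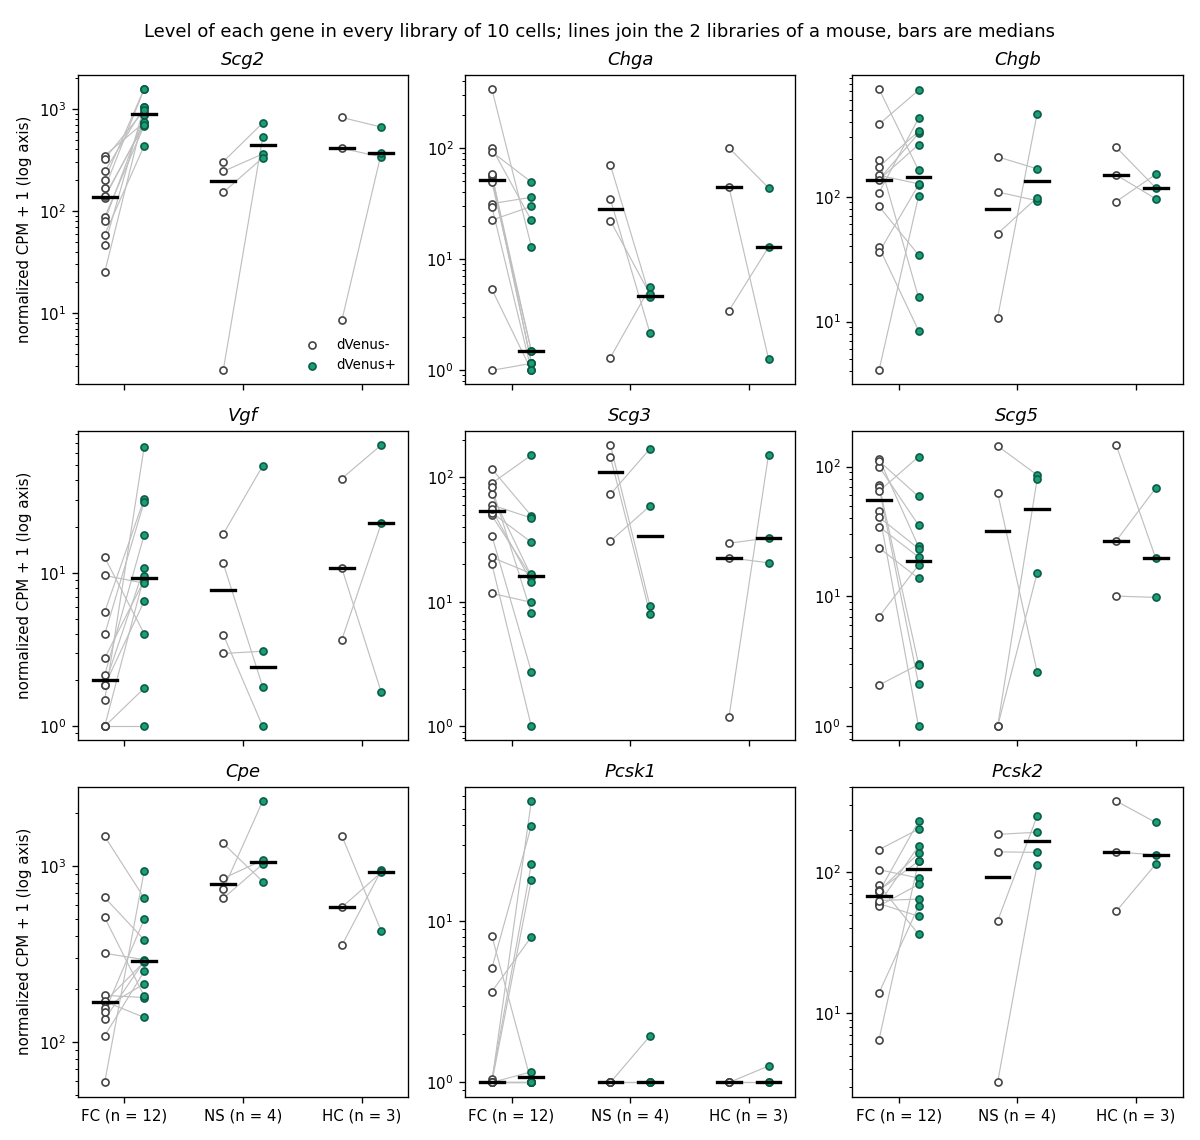
Normalized CPM plus 1 (log axis) of each gene in every library, with open points for dVenus- and filled points for dVenus+ libraries, gray lines joining the 2 libraries of a mouse and bars at the group medians. For *Scg2* the 12 FC dVenus+ libraries, from 435 to 1569 CPM, all lie above the 12 dVenus- libraries, which reach 348 CPM at most.

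*Scg2* (chr1:79434669-79440120, minus strand, GRCm38) encodes secretogranin II, the precursor of the peptide secretoneurin. In FC dVenus+ libraries it ran from 435 to 1569 CPM with a median of 883, and in dVenus- libraries from 24.0 to 348 CPM with a median of 136. Every dVenus+ library lay above every dVenus- library, which was so for 12 genes in either direction, or 0.124% of those tested in FC. *Scg2* was higher in dVenus+ cells of 12 of 12 mice, with within-mouse differences from 1.08 in mouse 10 to 5.18 in mouse 04 in log2(CPM + 1). A gene moved the same way in all 12 mice in 1.63% of the genes tested. The fitted log2 fold change was 2.91 (standard error, SE, 0.34, edgeR adjusted p = 5.035e-06).

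The difference in *Scg2* was present in each of the 3 experiments that the FC mice came from. Its mean was 3.73 in the 2 mice of the first, 3.37 in the 4 mice of the second and 2.29 in the 6 mice of the third, in log2(CPM + 1), and all mice of each were higher in dVenus+ cells. Fitted within experiments, the call held in the 6 mice (adjusted p = 0.0170) and not in the 2 (adjusted p = 0.521) or the 4 mice (edgeR adjusted p = 0.104). Without mice 06, 07 and 14 the log2 fold change was 2.88 (adjusted p = 0.0004467), and without mice 03 and 05 it was 2.69 (adjusted p = 6.32e-05). By an exact sign-flip permutation test of the 12 differences, two-sided, p was 0.000488, the smallest that 12 mice allow, and 0.0300 after adjustment over all genes tested.

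*Chga* (chr12:102554969-102565028, plus strand) encodes chromogranin A, a vesicle matrix protein and precursor of several peptides. It ran from 0 to 48.4 CPM in FC dVenus+ libraries with a median of 0.493, and from 0 to 339 CPM in dVenus- libraries with a median of 50.9. It reached 10 counts in 5 of the 12 dVenus+ and in 11 of the 12 dVenus- libraries. The dVenus+ libraries of mice 03, 06, 09, 10 and 11 held between 12.0 and 48.4 CPM and those of the remaining 7 mice at most 0.505 CPM. The 2 groups of libraries overlapped. *Chga* was lower in dVenus+ cells of 9 of 12 mice, and the differences in log2(CPM + 1) of the other 3 were at most 0.41. Its log2 fold change was -3.43 (SE 0.92, edgeR adjusted p = 0.0287).

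The call of *Chga* was lost when any of 6 mice was left out. The adjusted p was 0.0752 without mouse 01, 0.0598 without 07, 0.0781 without 09, 0.0627 without 12, 0.0704 without 13 and 0.0530 without 14. Without mice 06, 07 and 14 together the log2 fold change was -3.49 (edgeR adjusted p = 0.0778). With the mouse left out of the fit as a block it was -2.43 (adjusted p = 0.0521). In the 6 mice of the third experiment *Chga* was lower in 6 of 6, and in the first and second in 1 of 2 and 2 of 4 mice. In log2(CPM + 1) the mean differences in the 3 experiments were -2.31, -1.89 and -3.93.

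*Chgb* (chr2:132781278-132795079, plus strand) encodes chromogranin B, the other chromogranin of the vesicle core. It ran from 7.46 to 713 CPM in FC dVenus+ libraries with a median of 144, and from 3.06 to 731 in dVenus- libraries with a median of 136. The ranges nearly coincided, while within mice the difference went from -3.67 in mouse 14 to 4.63 in mouse 04, with 7 of 12 mice higher in dVenus+ cells. Its log2 fold change was 0.37 (SE 0.55, edgeR adjusted p = 0.800). The SD of its within-mouse differences was 2.27 in log2(CPM + 1), around a mean of 0.24.

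*Vgf* (chr5:137026392-137033351, plus strand) encodes a granin-like precursor named for its induction by nerve growth factor. It was low: 0 to 64.9 CPM in FC dVenus+ libraries with a median of 8.25, and 0 to 11.6 CPM in dVenus- libraries with a median of 1.01. Of the dVenus+ libraries, 4 lay above every dVenus- library, those of mice 01, 03, 09 and 14. *Vgf* was higher in 9 and lower in 2 of 12 mice, and mouse 05 had no counts in either library. The log2 fold change was 2.58 (SE 0.80, edgeR adjusted p = 0.0605). It passed the threshold without mouse 07 (adjusted p = 0.0402) or mouse 10 (adjusted p = 0.0216), the 2 mice in which it was lower, and with the mouse left out of the fit as a block (adjusted p = 0.0393). Leaving out a mouse of the opposite sign favors a pass, so the first 2 values are no support for a difference. With each of the other 10 mice left out it did not pass (edgeR adjusted p up to 0.124).

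*Scg3* (chr9:75643189-75684056, minus strand) encodes secretogranin III, which binds chromogranin A and cholesterol-rich vesicle membrane. It ran from 0 to 149 CPM in FC dVenus+ libraries with a median of 15.0, and from 10.7 to 115 CPM in dVenus- libraries with a median of 52.5. In 4 dVenus+ libraries it lay under every dVenus- library, and in mouse 05, the only mouse with a higher value in dVenus+ cells, above all of them. It was lower in 11 of 12 mice, with a log2 fold change of -1.55 (SE 0.60, edgeR adjusted p = 0.149). The mean difference was negative in each of the 3 experiments, at -1.44, -1.53 and -1.73 in log2(CPM + 1). Its unadjusted p in the exact sign-flip permutation test, two-sided, was 0.00342, and 0.0655 after adjustment over all genes tested.

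*Scg5* (chr2:113776362-113829121, minus strand) encodes a small chaperone that keeps the convertase of *Pcsk2* inactive until it reaches the vesicle. It ran from 0 to 118 CPM in FC dVenus+ libraries with a median of 17.8, and from 1.08 to 114 CPM in dVenus- libraries with a median of 53.8. It was lower in 9 of 12 mice, and by more than 4 in log2(CPM + 1) in mice 01, 04 and 05. The log2 fold change was -1.47 (SE 0.69, edgeR adjusted p = 0.263). Its partner *Pcsk2* had the opposite sign in FC mice, and in 7 of 12 mice *Scg5* was lower while *Pcsk2* was higher.

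*Cpe* (chr8:64592542-64693054, minus strand) was among the most abundant members. In FC it ran from 137 to 934 CPM in dVenus+ libraries with a median of 286, and from 57.8 to 1474 in dVenus- libraries with a median of 168. The groups overlapped over most of their range, and 6 of 12 mice were higher in dVenus+ cells. Its log2 fold change was 0.40 (SE 0.39, edgeR adjusted p = 0.653). Over the 38 libraries the level of *Cpe* had a Spearman correlation of 0.68 with the summed astrocyte markers, of 0.58 with the oligodendrocyte markers and of -0.61 with the number of genes detected, values that share libraries and depth, and no other member passed 0.5 in size against any marker list or measure of depth. Glia express *Cpe* too, and the part of their RNA in these values was not tested.

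*Pcsk2* (chr2:143546156-143816285, plus strand) encodes the convertase that acts late, in the acidic vesicle. It was counted in every library, from 35.3 to 229 CPM in FC dVenus+ (median 104) and from 5.49 to 144 CPM in dVenus- libraries (median 66.6). It was higher in 9 of 12 mice, with a log2 fold change of 0.81 (SE 0.45, edgeR adjusted p = 0.365).

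*Pcsk1* (chr13:75089826-75134861, plus strand) encodes the convertase that acts early in the secretory pathway. It was listed at 0 counts in 26 of the 38 libraries. All 8 libraries with at least 10 counts came from FC mice. They were the dVenus+ libraries of mice 01, 03, 07, 10 and 12, with 436, 77, 124, 84 and 143 counts, and the dVenus- libraries of mice 03, 10 and 14, with 19, 50 and 106 counts. Its level ranged up to 55.0 CPM in dVenus+ and up to 7.15 CPM in dVenus- libraries. Of the 7 FC mice in which its libraries differed, 6 were higher in dVenus+ cells. In a fit without the count filter the log2 fold change in FC was 3.41 (SE 1.44, edgeR adjusted p = 0.288). Between the NS and HC libraries, with 0 to 7 counts, no difference was detectable at this depth.

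**Figure D2:**
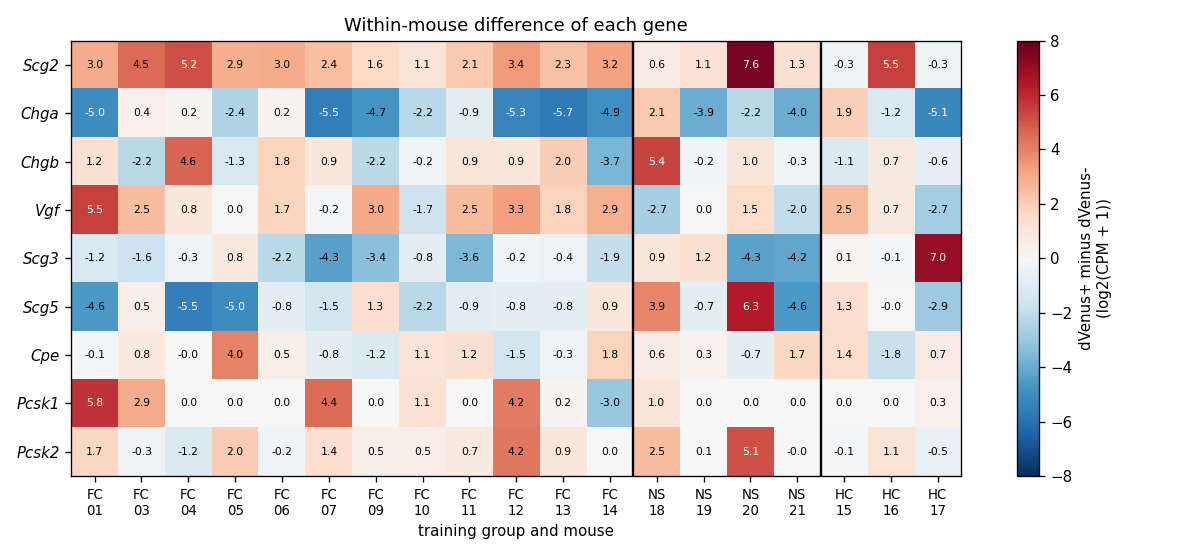
Difference between the dVenus+ and the dVenus- library of each mouse in log2(CPM + 1), red where dVenus+ is higher and blue where it is lower, with genes in rows and mice in columns grouped by training. The row of *Scg2* is red in all 12 FC and 4 NS mice, while *Chga* and *Scg3* are mostly blue in FC mice.

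No mouse moved all members in 1 direction. In every FC mouse between 4 and 6 of the 9 members were higher and between 3 and 5 lower in dVenus+ cells. *Scg2* was higher while *Scg3* was lower in 11 of 12 FC mice, and *Scg2* was higher while *Chga* was lower in 9 of 12. *Chga* and *Pcsk2* never moved together in FC mice: 9 had *Chga* lower and *Pcsk2* higher and 3 the reverse. Some of these signs rest on differences near 0. *Chga* held 1 count in the dVenus+ and 0 in the dVenus- library of mouse 04, and differed by 0.19 in mouse 06. *Pcsk2* differed by 0.035 in mouse 14, all in log2(CPM + 1) where not in counts. The pairs of genes were read off the data and are given as a description.

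The NS mice, which saw the chamber without a shock, were compared in the same way, over 8187 genes of which 0.0489% were called, 0.0366% higher and 0.0122% lower. *Scg2* was the only one of the 8 members tested with an unadjusted p under 0.05, as for 8.67% of all genes, and 0 were called by edgeR's quasi-likelihood test or by DESeq2. In the dVenus+ libraries of mice 18, 19, 20 and 21 *Scg2* had 361, 331, 530 and 727 CPM, and in their dVenus- libraries 243, 151, 1.74 and 303 CPM. Every dVenus+ library lay above every dVenus- library, as for 5.97% of the genes tested in NS. Its log2 fold change was 1.95 (SE 0.95, edgeR adjusted p = 0.574), and it was 0.88 without mouse 20, whose dVenus- library held 22 counts. The exact sign-flip permutation test cannot go below 0.13 (rounded) with 4 mice.

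The other members did not move alike in the 4 NS mice. *Chga* had 4.58, 3.57, 3.83 and 1.17 CPM in the dVenus+ libraries of mice 18 to 21 and 0.305, 69.3, 21.2 and 33.6 CPM in the dVenus- libraries. It was lower in 3 of 4 mice, with a log2 fold change of -2.49 (SE 1.77, edgeR adjusted p = 0.692). *Scg3* had 57.7, 168, 8.27 and 7.01 CPM in dVenus+ and 29.7, 71.8, 180 and 145 CPM in dVenus- libraries, higher in mice 18 and 19 and lower in mice 20 and 21. *Vgf* had 0.808, 2.08, 48.8 and 0 CPM against 10.5, 1.99, 16.9 and 2.96 CPM, so mouse 20 alone held most of it. *Scg5* was at 0 counts in the dVenus- libraries of mice 18 and 20 and at 143 and 62.0 CPM in those of mice 19 and 21, with 14.2, 85.1, 78.7 and 1.63 CPM in the dVenus+ libraries.

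The 3 remaining genes were counted in every NS library. *Chgb* had 462, 92.0, 97.4 and 166 CPM in the dVenus+ and 9.75, 108, 49.6 and 208 CPM in the dVenus- libraries of mice 18 to 21, higher in 2 of 4. *Cpe* had 1026, 1080, 815 and 2343 CPM against 654, 849, 1343 and 736 CPM, higher in 3 of 4. *Pcsk2* had 249, 191, 112 and 137 CPM against 44.0, 185, 2.22 and 139 CPM, and the dVenus- library of mouse 20 that was low in *Scg2* was low in *Pcsk2* as well. The log2 fold changes of *Chgb*, *Cpe* and *Pcsk2* were 1.08 (SE 1.08), 0.47 (0.55) and 1.71 (1.12).

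In the HC mice, taken from the home cage, the same comparison gave no calls, with 0 of 8 members and 0% of 7588 genes called by edgeR's quasi-likelihood test. At an unadjusted p under 0.05 there were 0 members and 532 genes, and DESeq2 called 0 members and 625 genes. *Scg2* had 337, 369 and 662 CPM in the dVenus+ libraries of mice 15, 16 and 17 and 410, 7.45 and 823 CPM in the dVenus- libraries. It was higher in dVenus+ cells of mouse 16 alone, whose dVenus- library was the low one, and the groups overlapped. Its log2 fold change of 0.93 (SE 1.31, edgeR adjusted p = 0.856) became -0.44 without that mouse. The exact sign-flip permutation test cannot go below 0.25 with 3 mice.

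*Chga* had 11.8, 42.8 and 0.265 CPM in dVenus+ and 2.45, 99.1 and 43.4 CPM in dVenus- libraries of the HC mice, lower in 2 of 3, with a log2 fold change of -1.52 (SE 2.21). *Vgf* had 20.0, 67.0 and 0.663 CPM against 2.67, 40.1 and 9.73 CPM, higher in 2 of 3. *Scg3* had 31.6, 19.5 and 150 CPM against 28.5, 21.6 and 0.195 CPM, and the last of these, with 2 counts in the dVenus- library of mouse 17, set its mean difference. *Scg5* varied from 8.84 to 67.2 CPM in dVenus+ and from 9.07 to 146 CPM in dVenus- libraries, with 1 of 3 mice higher in dVenus+ cells. *Chgb* ran from 95.2 to 150 and from 90.5 to 249 CPM, *Cpe* from 424 to 946 and from 353 to 1487 CPM, and *Pcsk2* from 113 to 225 and from 51.8 to 320 CPM, the dVenus+ range being given before the dVenus- range.

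**Figure D3:**
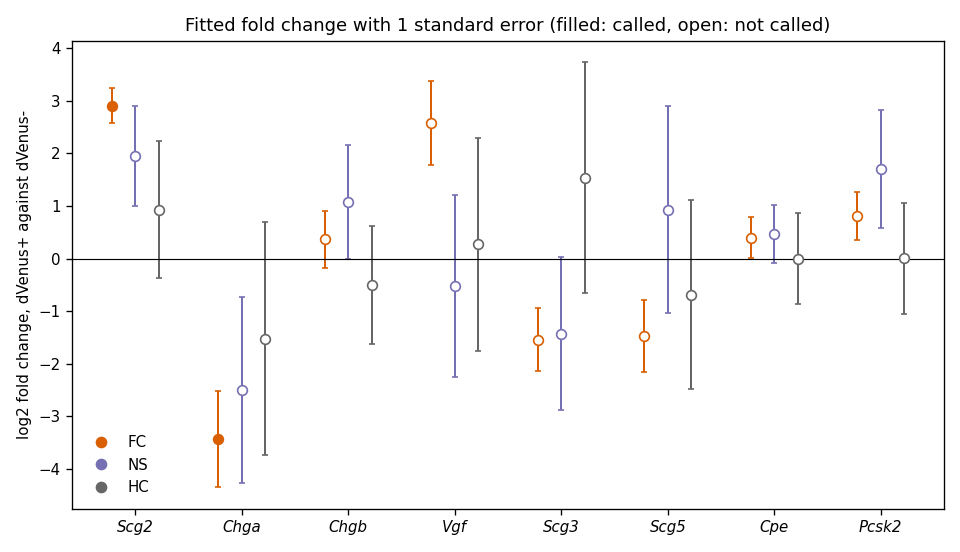
Fitted log2 fold change of dVenus+ against dVenus- libraries for the 8 members tested, in FC (orange), NS (purple) and HC mice (gray), with bars of 1 standard error and filled points where the gene was called. The filled points are *Scg2* at 2.91 and *Chga* at -3.43 in FC, and the bars are wider in NS and HC, which had 4 and 3 mice.

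The difference between the cells was compared between training groups by an interaction term. The model held the 38 libraries together and blocked on the mouse. FC mice came from other experiments than NS and HC mice, so in this term training and experiment cannot be told apart. Of the 9 members 0 passed for FC against NS and 0 for FC against HC, as did 0% of 14075 genes in either test (edgeR's quasi-likelihood test). At an unadjusted p under 0.05 there were 0 members in both tests, and 1152 (8.18%) and 1304 (9.26%) of the genes. For *Scg2* the log2 fold change in FC exceeded that in NS by 0.91 (SE 1.07, adjusted p = 0.877) and that in HC by 1.80 (SE 1.30, adjusted p = 0.667), and neither passed the test. The lowest unadjusted p-values among the members were those of *Vgf* in FC against NS, with a difference of 3.24 (SE 1.65, adjusted p = 0.624), and of *Scg3* in FC against HC, with -3.28 (SE 1.72, edgeR adjusted p = 0.553). DESeq2 called 2 members in FC against NS, *Vgf* with 5.13 (adjusted p = 0.0176) and *Scg5* with -4.78 (adjusted p = 0.0407), and 0 in FC against HC, where it called 1192 and 1583 genes in all.

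With all 19 mice in 1 fit and a single coefficient for the cell type, *Scg2* rose and *Chga* fell, and the other 6 members tested were not called, while 6.06% of 8885 genes were (2.81% higher). The fit shares the FC libraries with the comparison above and is no independent support for it. The log2 fold changes were 2.58 for *Scg2* (SE 0.40, adjusted p = 5.122e-05) and -2.80 for *Chga* (SE 0.76, edgeR adjusted p = 0.0195). *Vgf* had 1.50 (SE 0.68, edgeR adjusted p = 0.179, and 0.0308 by DESeq2, which called it) and *Pcsk2* 0.90 (SE 0.40, adjusted p = 0.169).

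Levels across training groups were tested only between NS and HC mice, which shared an experiment. Of the 8 members tested 0 were called in dVenus+ and 0 in dVenus- libraries by edgeR's quasi-likelihood test, at an unadjusted p under 0.05 also 0 and 0, and DESeq2 called 0 and 0. Over all genes 0% were called in both, with 773 of 8706 (8.88%) and 756 of 8547 genes (8.85%) at an unadjusted p under 0.05, and DESeq2 called 110 and 144. For *Scg2* the difference NS minus HC was 0.07 in log2 in dVenus+ libraries (SE 0.63, adjusted p = 0.989) and -1.31 in dVenus- libraries (SE 0.96, edgeR adjusted p = 0.769). FC mice came from other experiments than NS and HC mice, so in comparisons of their levels training and experiment cannot be told apart, and those levels are given side by side.

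Genes were compared per kilobase of exon. The lengths joined all GENCODE exons of a gene, while reads were counted on the NCBI transcript set. Close places in the order may depend on that choice. *Cpe* and *Scg2* led with medians of 154 and 141 CPM per kilobase over the 38 libraries. *Chgb* followed with 47.7, then *Scg5* with 15.6, *Pcsk2* with 12.2, *Scg3* with 11.2 and *Chga* with 7.71. *Vgf* had 1.27 and *Pcsk1* a median of 0. The ranges of neighbors in this order overlapped in every case. Between libraries *Scg2* spanned 0.693 to 624 CPM per kilobase.

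**Figure D4:**
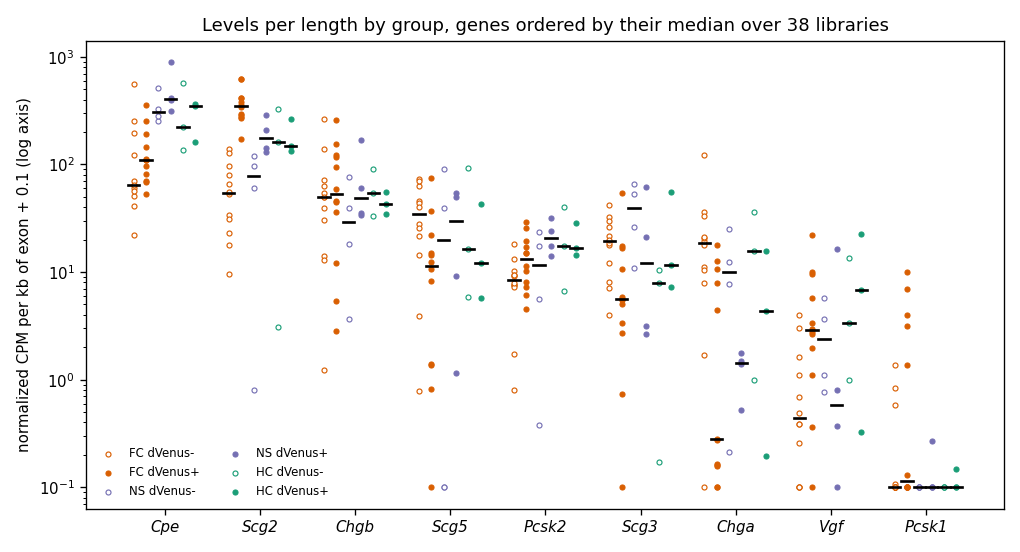
Normalized CPM per kilobase of exon plus 0.1 (log axis) for each gene in every library, with the 6 groups side by side, filled points for dVenus+ and open points for dVenus- libraries and bars at the medians. *Scg2* has its highest median, 351, in FC dVenus+ libraries, and *Cpe* its highest, 404, in NS dVenus+ libraries.

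The order of the groups differed between members. For *Scg2* the median level was highest in FC dVenus+ libraries with 883 CPM, followed by NS dVenus+ with 446, HC dVenus- with 410, HC dVenus+ with 369, NS dVenus- with 197 and FC dVenus- with 136, and only the step between FC dVenus+ and FC dVenus- and that between NS dVenus+ and NS dVenus- had no overlap within a training group. For *Cpe* the medians were 1053 and 793 CPM in NS, 920 and 582 in HC and 286 and 168 in FC libraries, in dVenus+ and dVenus- cells. The summed astrocyte markers had medians of 1580 and 1296 CPM in NS, 1701 and 594 in HC and 259 and 502 in FC libraries, again in dVenus+ and dVenus- cells. For *Chga* the 3 dVenus- medians, 50.9 in FC, 43.4 in HC and 27.4 in NS, were all above the dVenus+ medians, 11.8 in HC, 3.70 in NS and 0.493 in FC.

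Over the 38 libraries the genes closest to 6 of the members by Spearman correlation of log2(CPM + 1), among 8885 genes, were the following, given without a test because libraries share mice and depth. The dVenus+ and dVenus- libraries were pooled, so a difference between the cell groups enters these values, positive and negative. *Scg2* and *Bdnf* were both called higher in FC dVenus+ cells. *Scg2* was closest to *Bdnf* (0.87), *Plk2* (0.82) and *Sorcs3* (0.81), the highest values reached by any member. *Chgb* was closest to *H2afx* (0.71), *Vgf* to *Gdap1l1* (0.62), *Scg3* to *Frmpd4* (0.64) and *Scg5* to *Nr1d2* (0.78). *Pcsk1* was closest to *Rgmb* (0.58). Among the members the highest value was that of *Chgb* with *Pcsk2* (0.53), and the lowest were those of *Scg2* with *Scg3* (-0.51), *Vgf* with *Scg3* (-0.41) and *Scg2* with *Chga* (-0.38).

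Other genes of the pathway were read from lists named with the members and, like them, chosen with earlier results of these data known. Of 16 further genes of granin and prohormone maturation, 12 were tested in FC mice and 0 were called by edgeR's quasi-likelihood test or by DESeq2, with 1 and 3 at an unadjusted p under 0.05. The former was *Pcsk1n*, which encodes an inhibitor of the *Pcsk1* convertase, with medians of 77.5 CPM in dVenus+ and 151 CPM in dVenus- libraries and a log2 fold change of -1.04 (edgeR adjusted p = 0.180). *Pcsk1n* was lower in dVenus+ cells of 9 of 12 FC, 4 of 4 NS and 3 of 3 HC mice. Of the genes tested, 17.2% in NS and 29.7% in HC moved the same way in every mouse. *Pcsk1n* was called lower in the fit of all 19 mice (-1.09, edgeR adjusted p = 0.0424), as were 3.24% of all genes. Next by p were *Qpctl*, a glutaminyl cyclase, with -1.01, and *Furin*, the convertase of the Golgi, with 1.13 (adjusted p = 0.599 and 0.616, edgeR with Benjamini-Hochberg adjustment).

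Of 32 genes of dense-core vesicle biogenesis and exocytosis, 25 were tested in FC, with 1 called higher and 2 lower, against 1.50% and 2.84% of all genes, and a median log2 fold change of -0.36. *Ptprn*, a transmembrane protein of the vesicle, rose with medians of 343 and 89.4 CPM in dVenus+ and dVenus- libraries (log2 fold change 1.57, adjusted p = 0.0143, higher in 11 of 12 mice, edgeR with Benjamini-Hochberg adjustment). The vesicle GTPases encoded by *Rab3a* and *Rab27b* fell. *Rab3a* had medians of 85.1 and 391 CPM (log2 fold change -2.17, adjusted p = 0.000417, lower in 12 of 12 mice) and *Rab27b* of 0.893 and 26.3 CPM (log2 fold change -3.55, adjusted p = 0.0111, lower in 11 of 12 mice). Without mice 06, 07 and 14 the calls of *Ptprn* (1.57, adjusted p = 0.0713) and *Rab27b* (-3.29, adjusted p = 0.112) were lost.

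Of 18 peptide and neurotrophin cargo genes, 6 were tested in FC, with 3 called higher and 1 lower, where 1.50% and 2.84% of all genes were. The list was chosen with earlier results of these data known, so these shares are a description and no test of the list. *Penk*, the enkephalin precursor, had medians of 437 and 3.60 CPM in dVenus+ and dVenus- libraries and a log2 fold change of 6.47 (adjusted p = 2.12e-06). *Bdnf*, a neurotrophin sorted into dense-core vesicles, had medians of 521 and 80.7 CPM and a log2 fold change of 2.49 (adjusted p = 5.26e-05, higher in 12 of 12 mice). *Npy*, neuropeptide Y, had medians of 39.7 and 0.0424 CPM and a log2 fold change of 5.18 (adjusted p = 0.00842, higher in 10 of 12 mice), and *Cck*, the cholecystokinin precursor, had 26.9 and 179 CPM and a log2 fold change of -2.70 (adjusted p = 0.00842, lower in 12 of 12 mice, edgeR with Benjamini-Hochberg adjustment for all 4). The call of *Npy* was lost without mice 06, 07 and 14 (adjusted p = 0.0635), without mice 03 and 05 (3.95, adjusted p = 0.0739) and with the mouse left out as a block (1.32, adjusted p = 0.461). *Cck* and *Npy* are made by interneurons as well, whose summed markers were lower in dVenus+ cells of 9 of 12 FC mice, and the part of these cells was not tested. In NS and HC mice 0 genes of the 3 lists were called by edgeR's quasi-likelihood test, where 7 of 37 and 6 of 38 tested were at an unadjusted p under 0.05, against 8.67% and 7.01% of all genes. In NS mice DESeq2 called 2 of 6 cargo genes higher and 1 lower, beside 666 of all 8187 genes. In HC mice it called 1 of 6 cargo genes higher and 1 lower, and 2 of 24 genes of dense-core vesicles higher and 4 lower, beside 625 of all 7588 genes.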

How the data were processed

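Libraries of 10 aspirated cells had been made with SmartSeq2 and Nextera XT and sequenced as single reads. Per the labels and the methods of the study, the authors aligned the reads to mm10 (GRCm38) with TopHat2 2.0.13, kept unique alignments and ran HTSeq 0.6.0 against the NCBI transcript set. The deposited values are raw counts, 1 file for each of the 38 libraries. A deposited joint table of counts for 11802 genes equals these files in 38 of 38 libraries and was used for an alternative only. Entries that name no gene were left out; reads outside genes came to 16.4% to 59.7%, and ambiguous reads to 0.181% to 1.58%, of the counts on genes, outside genes and ambiguous together. The protocol named adds no molecular identifiers, so values near 0 are limited by counting error at least. The strand setting of the counting is not given in the sources used here, so reads of overlapping genes on opposite strands may not be told apart. Pairs that the authors excluded were not analysed here.

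Groups, mice and experiments came from the titles and characteristics. In 10 libraries of NS and HC mice the description names a library other than the title does, and it was not used. Replicates are mice, and 0 pairs of libraries of a group agreed within sampling noise. The 2 libraries of a mouse share the animal and were paired. As a check, the deviations of both from their group means correlated by -0.03 to 0.21 over FC mice (median 0.036, 2 of 12 over 0.1), with medians of -0.012 in NS and 0.02 in HC mice.

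Counts were tested with edgeR 4.0.16 (R 4.3.3; TMM, estimateDisp, glmQLFit, glmQLFTest, two-sided) with the mouse as a block, separately in FC, NS and HC, keeping genes that reached 10 counts in 12, 4 and 3 libraries or more. The minimum was 3 libraries for the interactions and for NS against HC, and 19 for all mice. P-values were adjusted after Benjamini-Hochberg over all genes tested. A gene was called at an adjusted p under 0.05 and, outside the interactions, an absolute log2 fold change over 1. The standard error is the log2 fold change divided by the square root of the F statistic. Levels are CPM scaled by TMM over the 38 libraries, and exact sign-flip tests used log2(CPM + 1). Exon lengths came from GENCODE M21 and promoter sequences from RefSeq (GRCm38.p6). The scripts were tested on simulated counts. Alternatives were DESeq2 1.42.0 (the authors' tool), its size factors, other filters, the older quasi-likelihood method, a fit without the block, the number of detected genes as covariate, subsets of mice and each mouse left out. All 9 members are described; from each of the other 3 lists, the genes called in FC are named (at most 6, by the smallest p), filled up by unadjusted p to 3 where fewer were called. The 3 genes closest to each member by correlation were computed, of which the text gives 3 for *Scg2* and 1 for each of 5 others, and those of *Chga*, *Cpe* and *Pcsk2* are not reported here. *Arc* checks the labels. Members and lists were chosen with earlier results of these data known. Protein sequences were not analysed here.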

Additional observations from a re-analysis of the deposited data

Results flagged for a closer look

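Among the 18 sets of values formed by the 9 genes in the 2 cell groups of the NS mice, 2 held a library far from the other 3 by Dixon's criterion in log2(CPM + 1). For normally distributed values chance meets it in about 1 set in 20, a rate that does not hold for sets with many values at 0. *Scg2* in the dVenus- library of NS mouse 20 was at 1.74 CPM (22 counts), while the other 3 dVenus- libraries lay between 151 and 303 CPM. *Pcsk1* in the dVenus+ library of NS mouse 18 was at 0.943 CPM (7 counts) and at 0 in the other 3, so any value above 0 would have been flagged. Its 4 dVenus- libraries were all at 0 and could not be flagged. FC and HC groups, with 12 and 3 mice, were not examined in this way.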

How the results depend on the processing

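In FC mice 2 members were called. DESeq2 called 4, with *Scg3* (adjusted p = 0.0192) and *Vgf* (adjusted p = 0.000855) besides *Scg2* and *Chga*. The count was 1 without a count filter, by the older quasi-likelihood method, by the exact sign-flip test, without mice 06, 07 and 14 and in the third experiment alone (6 mice), 0 in the first (2 mice) and 0 in the second (4 mice), and 1 to 3 with each mouse left out. Leaving out the mouse as a block, the pairing, also gave 2, with *Vgf* (2.35, adjusted p = 0.0393) in place of *Chga* (-2.43, adjusted p = 0.0521), and changed no other call of a member. Of the other genes named, *Npy* lost its call without the block (1.32). *Scg2* ran from 2.29 to 3.77 and kept its call in 23 of 25 alternatives, *Chga* from -4.28 to -2.14 with its call in 11 of 25. For FC against NS DESeq2 called 2 members in place of 0, and over all mice the older method called 1 and DESeq2 3, with *Vgf* (adjusted p = 0.0308), in place of 2. Member counts in NS, in HC, in FC against HC and in NS against HC were 0 under every alternative run.

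Signs turned for *Chgb* in FC in the first (-0.29) and in the third experiment (-0.21), for *Qpctl* (0.04) and *Furin* (-1.48) in the second, and in HC for *Scg2* without the block (-0.03), with the number of detected genes as covariate (-15.39) and over mice left out (-0.44 to 2.26), and for *Chga* with the covariate (20.32) and over mice left out (-3.15 to 0.11). The HC fit with the covariate has nearly as many coefficients as libraries, so its values are poorly determined. The cause of the other sign changes was not tested. Of 81 alternatives of counts, 66 stayed within 1.5 times. Most of these were counts of 0 that stayed 0, in comparisons with few mice or in the interactions. The count in FC stayed in 12 of 25 alternatives and moved in 13, and that over all mice stayed in 4 of 5. Of 522 alternatives of single genes, 464 kept direction and call, 42 lost the call, 7 gained it and 9 changed sign.

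Counts over all genes depended on the tool. In FC 422 genes were called, against 1635 by DESeq2, 137 by the older method, 154 without mice 06, 07 and 14, 272 without mice 03 and 05, and 0, 12 and 15 in the experiments with 2, 4 and 6 mice. In NS 4 were called, against 666 by DESeq2, 11 with its size factors, 13 without the block, 1 without the filter and 0 by the older method. In HC 0 were called, against 625 by DESeq2 and 2 by the older method, and over all mice 538, against 1795 and 153. With 4 NS and 3 HC mice the standard errors of the members were wide, and *Pcsk1* was too low for a test at this depth.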
